A study of Homo sapiens with 33 samples.

Results

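The 85 genes described here encode the proteins of the cytosolic ribosome and their like-named paralogs, 85 of the 29744 genes in the expression tables. They were chosen by symbol alone: RPL or RPS followed by a number with an optional A, X, L or L1, together with RPLP0 to RPLP2 and RPSA. Symbols that end in L or L1 were set apart as 8 paralogs, which left 77 core genes, 46 of the large subunit and 31 of the small subunit. Their levels were measured by RNA-seq in 33 libraries from 11 cell lines of high-grade serous ovarian carcinoma (HGSOC), with 3 replicates per line. OVCAR3 and OVCAR4 are platinum-sensitive lines, and the study derived ResA and ResB from each by repeated short pulses of cisplatin with recovery in between. PEA1 and PEO1 are platinum-sensitive lines from patients, and PEA2 (from the patient of PEA1) and PEO4 and PEO6 (from the patient of PEO1) are resistant lines that arose in the clinic. The labels name no drug treatment of the sequenced cells, so 7 resistant lines are compared with their 4 sensitive counterparts as cultured. Each family stands for 1 patient or 1 starting line, and the roles sensitive and resistant come from the study's text. Nothing says that the 3 replicates of a line were separate cultures, so p-values measure the spread between these libraries, which may be technical.

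Ribosomal proteins (RPs) assemble on ribosomal RNA into the small subunit, which decodes the mRNA, and the large subunit, which joins the amino acids. Their mRNAs are among the most abundant and shortest of a growing cell, and most begin with a C followed by a run of pyrimidines, the terminal oligopyrimidine (TOP) motif, through which mTOR signalling and LARP1 set their translation. RPs made in excess of ribosome assembly are degraded, and free RPL5 and RPL11 bind MDM2 and stabilise p53. A few core genes have an expressed paralog elsewhere in the genome, of which RPL22L1 and RPL39L are known for tissue-restricted or tumour expression. RP genes also have many processed pseudogenes with near-identical sequence, so reads may have been split between a gene and its copies and every level below is uncertain to that extent.

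The windows that follow show the transcript start of core genes whose changes are described further on, and of 4 paralogs beside their core genes. Each window holds 15 bases before and 15 bases from an annotated RefSeq transcript start (GRCh38.p14), and capitals mark the unbroken run of C and T that begins at the start itself. RPS16 lies at chr19:39435935-39435964, minus strand, RPS23 at chr5:82278340-82278369, minus strand, RPL38 at chr17:74203663-74203692, plus strand, RPL7A at chr9:133348203-133348232, plus strand, and RPL35A at chr3:197950175-197950204, plus strand.
RPS16: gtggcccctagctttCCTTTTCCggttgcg
RPS23: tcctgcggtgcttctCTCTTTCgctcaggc
RPL38: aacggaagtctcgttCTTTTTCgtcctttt
RPL7A: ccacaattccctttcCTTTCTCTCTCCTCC
RPL35A: cggcggggcctcgtcCTTCTCTTaccgcca
Next come 4 core genes, each followed by its paralog: RPL22 (chr1:6199581-6199610, minus strand) and RPL22L1 (chr3:170870181-170870210, minus strand), RPL26 (chr17:8383179-8383208, minus strand) and RPL26L1 (chr5:172958714-172958743, plus strand), RPL36A (chrX:101390996-101391025, plus strand) and RPL36AL (chr14:49620612-49620641, minus strand), RPS27 (chr1:153990747-153990776, plus strand) and RPS27L (chr15:63157463-63157492, minus strand).
RPL22: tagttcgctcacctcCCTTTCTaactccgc
RPL22L1: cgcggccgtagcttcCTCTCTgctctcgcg
RPL26: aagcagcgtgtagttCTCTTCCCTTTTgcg
RPL26L1: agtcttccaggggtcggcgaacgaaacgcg
RPL36A: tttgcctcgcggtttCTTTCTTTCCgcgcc
RPL36AL: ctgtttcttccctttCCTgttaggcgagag
RPS27: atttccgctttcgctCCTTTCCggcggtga
RPS27L: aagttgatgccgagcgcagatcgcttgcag
Promoter sequence was matched for 68 of the 85 members, 62 core genes with 77 starts and 6 paralogs with 7 starts. A C at the annotated start followed by an unbroken run of at least 5 pyrimidines in all was found in 46 of the 62 core genes (74.2%) and in 1 of the 6 paralogs (16.7%), RPL22L1, against 5.14% of 27305 genes in the whole promoter table. CGGAAG, a core of ETS family sites, was searched on both strands of the 300 bases from 250 before to 50 after the start and was present in 40 core genes (64.5%), in 3 paralogs (50%) and in 22.6% of all genes. These matches describe letters at annotated starts and were not measured in the lines.

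The libraries held between 18058985 and 43394009 counts, with a median of 30611448, so that the least covered core gene in any library still had 2033 counts and depth did not limit the core genes. Core genes took between 4.01% and 11.3% of the counts (median 7.55%) and between 13.7% and 32.2% of the TPM, the read count per gene length scaled to the same total in each library. The 8 paralogs together took between 0.104% and 0.281% of the TPM. Mitochondrial rRNA took between 1.12% and 14.8% of the counts and nuclear rRNA between 2.19% and 11.8%, although the kit captured polyadenylated mRNA. The HGSOC label was checked with 8 epithelial and Müllerian markers, whose summed level ran from 404 to 8019 TPM. EPCAM was at a mean of 14.005 TPM in PEA1 against 529.9 TPM or more in each of the other lines, while the Müllerian factor PAX8 was at 74.9 TPM in PEA1. The 10 markers of leukocytes, endothelium and fibroblasts summed to between 5.98 and 139 TPM, highest in PEA1, and the T cell gene CD3E was at 0 in all libraries of 9 of the 11 lines.

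The share of counts on core genes was lower in both resistant OVCAR4 lines than in OVCAR4 and overlapped within the other families. In OVCAR4 the 3 libraries held 8.24%, 7.44% and 8.61% of counts on core genes, against 5.69%, 4.52% and 4.01% in OVCAR4 ResA and 4.50%, 4.23% and 4.28% in OVCAR4 ResB. All OVCAR4 libraries lay above all libraries of both resistant lines. Mean shares (SD, n = 3) were 9.51 ± 0.830% in OVCAR3, 8.62 ± 0.571% in OVCAR3 ResA and 8.0004 ± 1.84% in OVCAR3 ResB, which overlapped. Replicate 3 of OVCAR3 ResB stood apart with 5.88% against 9.22% and 8.89% in the other 2 libraries. It also held 1.12% mitochondrial rRNA against 5.97% and 8.88%. The endothelial gene PECAM1 was at 13.6 TPM there against 3.83 and 2.84 TPM. For the 2 comparisons of this line, the counts, called members and medians are also given without replicate 3. So is the contrast of selected with clinical lines. PEA1 (5.33 ± 1.23%) and PEA2 (6.26 ± 1.13%) overlapped, as did PEO1 (8.70 ± 2.30%), PEO4 (7.17 ± 0.982%) and PEO6 (9.005 ± 1.51%), where replicate 2 of PEO1 held the highest share of all libraries. With both kinds of rRNA left out of the total, a calculation added after the data had been seen, the share was 8.90% to 10.4% in OVCAR4, 4.26% to 6.79% in ResA and 4.50% to 5.74% in ResB, still without overlap. In bulk RNA a lower level per cell and fewer cells of a kind cannot be told apart.

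**Figure D1:**
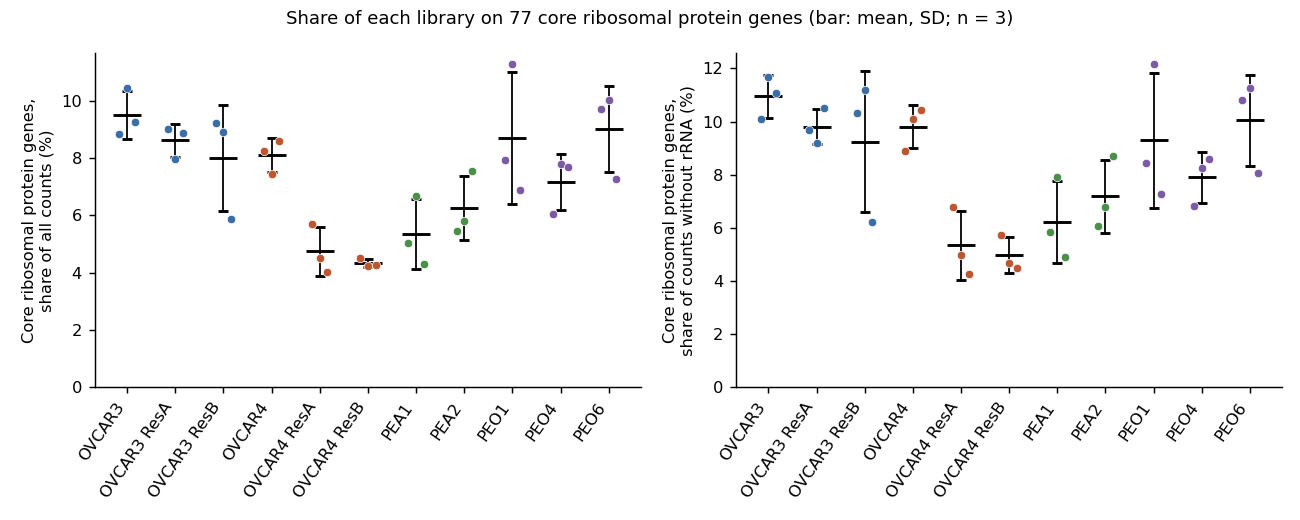
Share of each library on the 77 core RP genes, as a percentage of counts and of counts without rRNA, by line, with 1 point per library and bars for the mean and SD (n = 3). The 3 OVCAR4 libraries lie between 7.44% and 8.61% of counts, above every library of OVCAR4 ResA and OVCAR4 ResB.

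Core genes were abundant and unequal. Of the 77, 71 had a mean level above 1000 TPM over the 33 libraries. RPS27, a small zinc-binding protein of the small subunit, was the highest at a mean of 8843 TPM (range 3934 to 18881), followed by RPS24 at 8559 TPM and RPL39, which lines the exit tunnel of the nascent chain, at 6993 TPM. RPL13 was the lowest at 211 TPM, with RPL27A at 286 and RPS23 at 619.9 TPM. The effective lengths that the tables imply for RPL13 and RPL27A were 1.58 and 1.72 times that of the median gene, against a median of 0.200 times for the core genes, so their low TPM also rests on the transcript models that the authors' quantification used. For the median core gene the highest line mean was 2.92 times the lowest.

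RPS16, a small subunit protein whose tail reaches the tRNA in the P site, varied the most. It was at 16138, 21898 and 21849 TPM in the 3 OVCAR3 libraries and at 13860.5, 19449.5 and 22702 TPM in OVCAR3 ResA. In OVCAR3 ResB it was at 6256, 8321 and 5974 TPM, below all 6 of those libraries and above all libraries of the other families. The lowest line was PEA2 with 1516, 1426 and 1437 TPM, 13.7 times below the OVCAR3 mean. Genes around RPS16 on chromosome 19 had the same profile: of 39 other expressed genes within 1 Mb, a window chosen after the data had been seen, 36 were over 2 times their median in the 8 lines of the other families in OVCAR3, with a median of 6.65 times against 8.91 times for RPS16. In OVCAR3 ResA the neighbours' median was 7.94 times and RPS16 8.33 times, and in OVCAR3 ResB the values were 3.04 and 3.06 times. Over all 14137 genes with a mean of at least 1 TPM, 13% passed 2 times in OVCAR3. DNA copy number was not analysed here.

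RPL30, a large subunit protein, was 7.79 times higher in PEO6 (17038, 13581 and 11541 TPM) than in OVCAR4 ResB (1259.6, 2115 and 2039 TPM), and it was high in all 3 PEO lines. RPS3, which sits at the mRNA entry channel, was 7.69 times higher in OVCAR3 (5328, 5017 and 4939 TPM) than in OVCAR4 ResB (442, 757 and 788 TPM). RPL34 differed 6.56-fold between its highest and lowest lines. RPL30, RPS3 and RPL34, like RPS24, RPL39, RPL27A and RPS23 above, were singled out after their values had been seen.

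**Figure D2:**
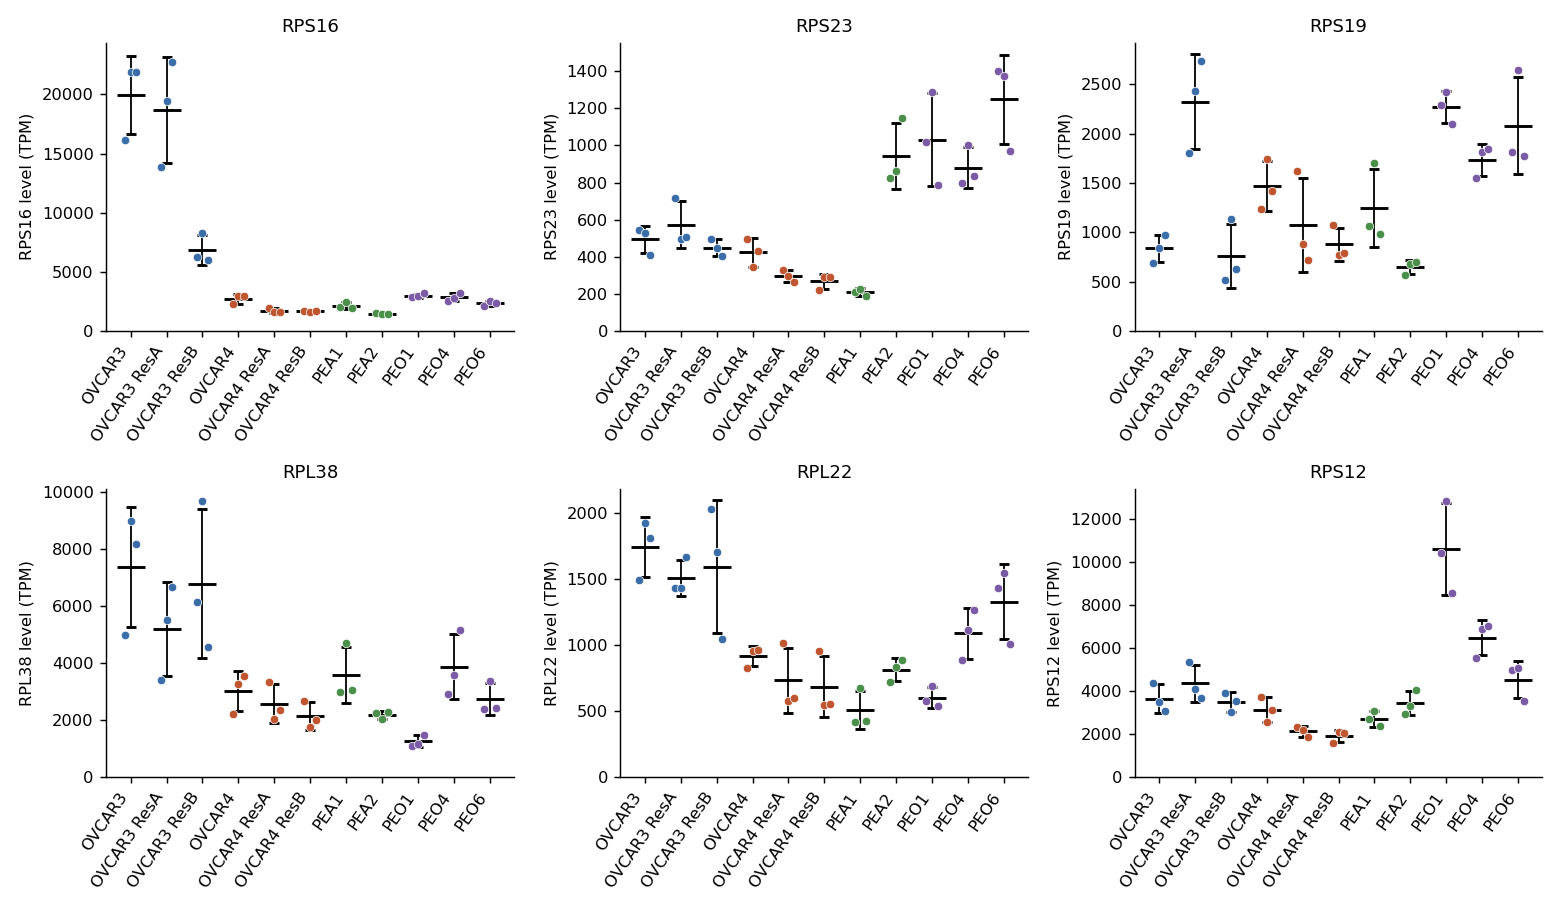
TPM of 6 core genes (RPS16, RPS23, RPS19, RPL38, RPL22, RPS12) by line, with 1 point per library and bars for the mean and SD (n = 3). RPS16 sits at 19962 TPM in OVCAR3 and 1459.8 TPM in PEA2, and RPS23 rises from 208 TPM in PEA1 to 943 TPM in PEA2.

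Changes between lines were tested with DESeq2 on counts across all genes, called at an adjusted p under 0.05, and each log2 fold change is resistant over sensitive. The OVCAR4 family showed the broadest change: the core set was lower as a whole in both resistant lines. In OVCAR4 ResA 51 of 77 core genes fell and 0 rose, where 5.22% of all tested genes fell and 6.68% rose. In OVCAR4 ResB 59 fell and 0 rose, against 8.77% and 9.09% of all genes. All 77 estimates were negative in each line in this fit, though not under every alternative below. The median core log2 fold change was -1.09 in ResA (range -1.83 to -0.0015) and -1.25 in ResB (range -2.04 to -0.08), where the median over all genes was 0.037 and 0.014. Both subunits took part: the large subunit median was -1.16 and -1.22, and the small subunit median -1.03 and -1.30, in ResA and ResB. Both lines were compared with the same 3 OVCAR4 libraries, so their changes are not independent. The short genes are non-members up to a limit of effective length, and they were not matched in length to the core genes. Their medians were -0.41 in ResA and -0.39 in ResB, lower than all genes but less so than the core set. The part of gene length in the core change was not tested.

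RPL7A, a large subunit protein, fell the most in both lines. It was at 3053, 2932 and 3472 TPM in OVCAR4, 1222, 1257 and 1358 TPM in ResA and 944, 1213 and 1328 TPM in ResB, with no overlap. The DESeq2 log2 fold change was -1.83 ± 0.31 (SE; adjusted p = 3.67e-07) in ResA and -2.04 ± 0.31 (SE; adjusted p = 1.96e-09) in ResB, and the ResB call held under all 9 alternatives. The ResA call was lost with limma (log2 fold change -1.30, adjusted p = 0.0707). RPL35, which sits at the tunnel exit, went from 4031, 4766 and 4343 to 2780.3, 1601 and 1529 TPM in ResB (log2 fold change -1.85, SE 0.46, adjusted p = 0.000748). The RPL35 call was lost with edgeR, with limma and without replicate 2 (log2 fold change -1.43, adjusted p = 0.132) or replicate 3 (-1.57, adjusted p = 0.153). Not every core gene followed: RPL39 was at 5596, 3408 and 4684 TPM in OVCAR4 and 7048, 6822 and 5538 TPM in ResA, with a log2 fold change of -0.027 ± 0.32 on the count scale (adjusted p = 0.97). RPL39 and RPL36A were not called in any of the 7 pairs.

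On the TPM scale, 41 core genes in ResA and 50 in ResB had all 3 libraries below all 3 OVCAR4 libraries, where 5.43% and 8.17% of genes with a mean of at least 1 TPM did so. All 3 lay above for 0 and 1 core genes, against 31% and 32.3% of such genes. The number of calls in the OVCAR4 family depended on the test, for the core genes and for all genes. Without the replicate block 64 core genes in ResA and 66 in ResB fell, with 9.6% and 13.7% of all genes. TMM scaling gave 49 and 58 lower, with 746 of 15390 and 1368 of 15968 genes. The low-count filter gave 51 and 61 lower, with 800 of 14259 and 1405 of 14333 genes. With limma on log2(TPM + 1), a scale that moved the median of all genes to 0.44 in ResA and 0.48 in ResB, the core medians were -0.54 and -0.67 and 0 and 1 core genes passed the adjusted threshold (31 and 38 at an unadjusted p under 0.05). Limma called 25 of 12961 and 92 of 13038 genes lower, and 7 and 4 core estimates were positive. EdgeR's quasi-likelihood test called 1 and 28 core genes lower and 0 higher, with 188 of 20951 and 656 of 20664 genes lower. Size factors from the short genes (short-gene scaling) gave 4 and 19 lower, with 271 of 15390 and 592 of 16359 genes. There 3 core estimates were positive in each line. Without replicate 2 the counts were 3 and 9, with 150 of 15046 and 373 of 15188 genes. Without replicate 3 they were 1 and 2, with 115 of 15078 and 313 of 14820 genes. Without replicate 1 they were 70 and 73, with 2958 of 15254 and 3594 of 15714 genes. Mitochondrial rRNA took 9.23% and 13.1% of counts in replicate 1 of ResA and ResB and 2.02% to 2.47% in their replicates 2 and 3, against 5.18%, 14.8% and 11.96% in OVCAR4. Markers of other cells summed to 5.98 to 7.20 TPM in OVCAR4, 13.1 to 36.2 TPM in ResA and 10.9 to 16.99 TPM in ResB, with 2 of 5 tested higher in ResA, and 1 higher and 1 lower of 6 tested in ResB, out of 10 listed. The 8 epithelial and Müllerian markers summed to 2625 to 3113 TPM in OVCAR4, 3647 to 3923 TPM in ResA and 2285 to 2986 TPM in ResB, and DESeq2 called 0 of them in ResA and 3 lower and 0 higher in ResB. The part of rRNA and of these markers in the result was not tested.

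**Figure D3:**
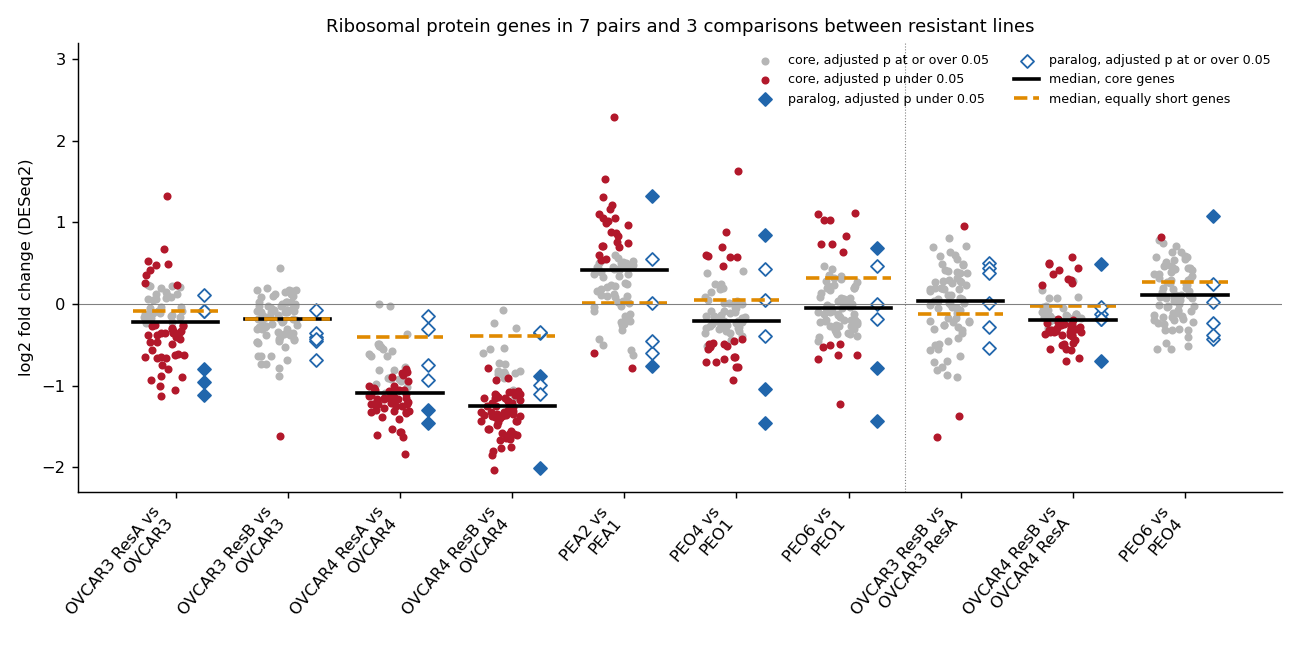
DESeq2 log2 fold change of each core gene (points, red where the adjusted p is under 0.05) and paralog (diamonds, filled where called) in 7 pairs of resistant over sensitive line and 3 comparisons between resistant lines. Lines give the median of the core genes (black) and of the short genes (dashed orange, labelled equally short), which were not matched in length to the core genes. The core median lies at -1.09 and -1.25 in the OVCAR4 pairs and between -0.22 and 0.42 in the other 5 pairs.

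In OVCAR3 ResA 9 core genes rose and 35 fell against OVCAR3, a share of calls set against a background in which 22% of all genes rose and 22.9% fell. The median was -0.22 and the large and small subunit medians were -0.27 and -0.11. The replicate number is a block in every fit, and in this pair libraries of the same number deviated together. Without the block 4 rose and 11 fell, where 14.2% of all genes rose and 15.9% fell, so the share of core genes that fell was then close to that of all genes. With limma on log2(TPM + 1), 13 rose and 20 fell, with 4778 and 2728 of 13599 genes. RPS19, the gene most often mutated in Diamond-Blackfan anaemia, rose the most, from 693, 841 and 974 TPM to 1802, 2437 and 2738 TPM (log2 fold change 1.33, SE 0.093, adjusted p = 2.55e-44). The groups did not overlap. RPS26, also a Diamond-Blackfan gene, fell from 905, 1515 and 1357 to 464, 746 and 686 TPM (log2 fold change -1.13, SE 0.10, adjusted p = 6.58e-30). RPL8, which lies close to the peptidyl transferase centre, fell from 2925, 3059.6 and 3229 to 1489.8, 1731 and 1669 TPM (log2 fold change -1.06, SE 0.091, adjusted p = 2.49e-29). These 3 calls held under all 9 alternatives. Of 8 epithelial markers 2 rose and 5 fell in the same pair. Of the markers of other cells, 7 of 10 were tested, 2 rose and 0 fell, with sums of 7.85 to 10.7 TPM in OVCAR3 and 12.2 to 17.3 TPM in ResA, and the part of either list in the RP result was not tested. Of the 9 core genes that rose, 5 are on chromosome 19, RPS19 among them, and 3 of the 12 core genes on that chromosome fell. Calls over all genes of that chromosome were not counted.

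In OVCAR3 ResB 1 core gene was called, RPS16, which fell (log2 fold change -1.62, SE 0.36, adjusted p = 0.000218), where 3.57% of all genes fell and 4.1% rose. DESeq2 called 0 core genes higher, edgeR called 0 higher and 1 lower, and 7 core genes had an unadjusted p under 0.05. The RPS16 values given above did not overlap between OVCAR3 and ResB, and the call held under all 9 alternatives. The core median was -0.19 and the median of the short genes -0.19. Without replicate 3 of OVCAR3 and of ResB, the latter being the library that stood apart, 2 core genes rose and 2 fell and the median was 0.13. Of all 15474 genes 1084 rose and 850 fell in that fit. RPS16 was then at -1.20 (SE 0.23, adjusted p = 4.78e-06). In the same pair, with all libraries, 0 of 8 epithelial markers rose and 1 fell, and 1 of 6 tested markers of other cells rose and 0 fell, and their part in the RP result was not tested.

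With all libraries, PEA2 was the 1 resistant line in which the core set leaned higher. Against PEA1 22 core genes rose and 2 fell, while 23.3% of all genes rose and 23.8% fell, so the share that rose was close to the background and the share that fell was below it. The median was 0.42, and 60 of 77 estimates were positive. RPS23, which lies at the decoding centre, went from 211, 228 and 186 TPM in PEA1 to 823, 862 and 1145 TPM in PEA2 (log2 fold change 2.29, SE 0.27, adjusted p = 4.19e-16). RPS15A went from 2961, 3579.6 and 2530.3 to 7041, 7322 and 10213 TPM (log2 fold change 1.54, SE 0.29, adjusted p = 9.72e-07). Neither gene overlapped between the lines, and both calls held under all 9 alternatives. RPS19 fell (log2 fold change -0.79, SE 0.28, adjusted p = 0.0127), from 1061, 1698 and 979 to 568, 677 and 700.3 TPM, a call lost without replicate 1 (-0.77, adjusted p = 0.166) or 2 (-0.45, adjusted p = 0.19), and so did RPS26, at the edge of the threshold (log2 fold change -0.60, SE 0.26, adjusted p = 0.0497), a call lost in 5 of 9 alternatives. In TPM, 28 core genes lay above PEA1 in all 3 PEA2 libraries, against 25.3% of all genes with a mean of at least 1 TPM, and 10 lay below, against 31.3%. Without replicate 1, 9 core genes rose and 0 fell, with 2189 and 2094 of 16012 genes. Without replicate 2 the counts were 34 and 0, with 2909 and 2930 of 15727 genes. Without replicate 3 they were 13 and 9, with 3620 and 3379 of 15660 genes. The core median without replicates 1, 2 and 3 was 0.49, 0.56 and 0.11, with 62, 66 and 45 of 77 estimates positive. With limma on log2(TPM + 1), 16 rose and 6 fell, with 2525 and 3254 of 13475 genes. In the same comparison 6 of 8 epithelial markers rose and 0 fell, with summed levels of 404 to 446 TPM in PEA1 and 4017 to 4321 TPM in PEA2. Of 10 markers of other cells, 6 of them tested, 3 rose and 2 fell, with sums of 79.6 to 139 TPM and 52.9 to 55.998 TPM, and the leukocyte gene PTPRC was at 0 in all PEA1 libraries and at a mean of 3.30 TPM in PEA2. CD3E, COL3A1 and DCN were at 0 in every library of both lines, while the collagen gene COL1A1 was at a mean of 88.4 TPM in PEA1 and 0.88 TPM in PEA2. The part of these markers in the RP result was not tested.

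PEO4 and PEO6 were both compared with the same 3 PEO1 libraries, and large changes were found in single genes. In PEO4 8 core genes rose and 17 fell, with 16.6% and 16.7% of all genes, and the median was -0.21. In PEO6 8 rose and 7 fell, with 21.2% and 20.3% of all genes, and the median was -0.047. RPL38, a large subunit protein known from the tail-short mouse, was at 1101, 1175 and 1494 TPM in PEO1, 2905, 3578 and 5146 TPM in PEO4 and 2390.1, 3386 and 2437 TPM in PEO6. It rose in both, by a log2 fold change of 1.63 ± 0.19 in PEO4 (SE; adjusted p = 1.32e-16) and 1.11 ± 0.23 in PEO6 (SE; adjusted p = 1.58e-05), without overlap. RPL22, a large subunit protein and a partner of viral and cellular RNAs, went from 574, 693 and 539 TPM in PEO1 to 887, 1111 and 1266 in PEO4 (log2 fold change 0.88, SE 0.20, adjusted p = 0.000112) and 1433, 1542 and 1007 in PEO6 (log2 fold change 1.11, SE 0.23, adjusted p = 8.92e-06). It also rose in PEA2 (log2 fold change 0.84, SE 0.27, adjusted p = 0.00557), a call lost without replicate 1 (0.82, adjusted p = 0.124) or 3 (0.54, adjusted p = 0.06). RPSA, also known as the laminin receptor, fell from 6766, 7527 and 5620.4 TPM to 4293, 4524 and 2783 in PEO4 (log2 fold change -0.77, SE 0.16, adjusted p = 9.84e-06) and 4472, 3459.6 and 4639 in PEO6 (log2 fold change -0.68, SE 0.25, adjusted p = 0.0168), where the call was lost without replicate 2 (-0.37, adjusted p = 0.381). RPS12 of the small subunit went from 10445, 12860.2 and 8572 to 5005, 5095 and 3544 TPM in PEO6 (log2 fold change -1.23, SE 0.22, adjusted p = 2.73e-07). RPL35A fell in PEO4, from 4506, 5364 and 3782 to 2414, 2574 and 1979 TPM (log2 fold change -0.93, SE 0.17, adjusted p = 9.08e-07). The counts in PEO4 rested on single libraries: 3 rose and 3 fell without replicate 1, with 1455 and 1466 of 15939 genes. They were 8 and 2 without replicate 2, with 1701 and 1784 of 15292 genes. Without replicate 3 they were 8 and 50, with 3117 and 3083 of 16587 genes. In PEO6, without replicate 2, in which PEO1 has its highest core share, 8 rose and 1 fell, with 1759 and 1953 of 16106 genes. The short genes were shifted in PEO6 (median 0.32), and with size factors from these genes 4 core genes rose and 13 fell there. Of all 17217 genes 2414 rose and 4386 fell in that fit. Epithelial markers summed to 4514 to 6088 TPM in PEO1, 3684 to 4363 TPM in PEO4 and 4253 to 5954 TPM in PEO6, with 3 of 8 higher and 1 lower in PEO4 and 3 higher and 2 lower in PEO6. Markers of other cells summed to 28.2 to 34.2, 23.7 to 34.3 and 17.4 to 18.8 TPM, and of 7 tested 1 rose and 0 fell in PEO4 and 1 rose and 2 fell in PEO6. The part of these markers in the RP result was not tested.

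Resistant lines of 1 origin were also compared with each other. In OVCAR3 ResB against ResA 1 core gene rose and 2 fell, with 7.47% and 6.04% of all genes. RPS19 was lower in ResB, at 517, 1132 and 627 against 1802, 2437 and 2738 TPM (log2 fold change -1.64, SE 0.40, adjusted p = 0.000713), and RPS16 was lower (log2 fold change -1.37, SE 0.39, adjusted p = 0.00567), a call lost by edgeR and without replicate 2 (-1.68, adjusted p = 0.0504), while RPL8 was higher (log2 fold change 0.96, SE 0.35, adjusted p = 0.0435), a call lost in 6 of 9 alternatives. Without replicate 3, 26 core genes were higher and 5 lower, with 1949 and 1775 of 15817 genes. The core median was 0.032 with all libraries and 0.32 without replicate 3. In that fit RPS19 was at -1.17 (SE 0.28, adjusted p = 0.000482), RPS16 at -0.87 (SE 0.24, adjusted p = 0.00237) and RPL8 at 1.24 (SE 0.24, adjusted p = 6.81e-06). In OVCAR4 ResB against ResA 10 rose and 37 fell, with 16.2% and 16.5% of all genes, and the median was -0.20. Same-numbered libraries deviated together here too, and without the block 0 rose and 2 fell, against 5.96% and 6.97% of all genes. EdgeR with the block gave 7 and 23, with 2987 and 2960 of 21120 genes. Limma on log2(TPM + 1) gave 9 and 8, with 2401 and 2000 of 13345 genes. Large log2 fold changes (± SE) were those of RPL19 (0.57 ± 0.079), RPL14 (0.50 ± 0.074) and RPS25 (-0.66 ± 0.10), calls lost without the block. Of the 12 core genes on chromosome 19, 9 were among the 37, and calls over all genes of that chromosome were not counted. In PEO6 against PEO4 DESeq2 called 1 core gene higher, RPS29 (log2 fold change 0.82, SE 0.31, adjusted p = 0.0448; a call lost in 5 of 9 alternatives), and 0 lower, with 9.86% and 8.33% of all genes. EdgeR called 0 there and 5 core genes had an unadjusted DESeq2 p under 0.05. Without replicate 3, 23 were higher and 0 lower, with 2501 and 2722 of 15972 genes.

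Of the 77 core genes, 75 were called in at least 1 of the 7 pairs, and 39 were called higher in one pair and lower in another. The share of all genes called at least once was not counted, so the 75 have no background. In OVCAR3 ResA alone 22% of all genes rose and 22.9% fell. RPL35A, a Diamond-Blackfan gene of the large subunit, was called in the most pairs, and its values are given side by side since pairs within a family share their control. Its log2 fold change was -0.93 ± 0.12 in OVCAR3 ResA, -0.21 ± 0.31 in OVCAR3 ResB, -1.06 ± 0.32 in OVCAR4 ResA and -1.32 ± 0.30 in OVCAR4 ResB (each ± SE). In the clinical lines it was 0.99 ± 0.26 in PEA2, -0.93 ± 0.17 in PEO4 and -0.62 ± 0.23 in PEO6, so the call in PEA2 (adjusted p = 0.000462) ran opposite to the other 5, and OVCAR3 ResB was not called (adjusted p = 0.857). RPL5 and RPL11, the MDM2-binding pair, did not always move together. RPL5 fell in OVCAR3 ResA (-0.61 ± 0.12, adjusted p = 8.13e-07) where RPL11 was at -0.16 ± 0.11 (adjusted p = 0.227). In PEA2 RPL5 rose (0.70 ± 0.27, adjusted p = 0.0229) with RPL11 at -0.21 ± 0.26 (adjusted p = 0.54), and the RPL5 call was lost with limma, with short-gene scaling and without replicate 1 (0.78, adjusted p = 0.15) or 3 (0.37, adjusted p = 0.167). Both fell in OVCAR4 ResA (-1.12 ± 0.33 and -1.17 ± 0.36, adjusted p = 0.0105 and 0.0161) and in OVCAR4 ResB (-1.25 ± 0.35 and -1.37 ± 0.38, adjusted p = 0.00362 and 0.00312), calls lost with edgeR, limma or short-gene scaling and when replicate 2 or 3 was left out. Without replicate 3 the values in ResB were -1.08, adjusted p = 0.37 and -1.10, adjusted p = 0.361. The RPL35A calls in the OVCAR4 lines were also lost with limma and short-gene scaling and without replicate 2 or 3, with -1.19, adjusted p = 0.23 in ResB without replicate 3, and edgeR lost the call in ResA. In PEO6 the RPL35A call was lost without replicate 2 (-0.43, adjusted p = 0.304) or 3 (-0.66, adjusted p = 0.07). In OVCAR3 ResB RPL35A was at -0.15 (SE 0.24, adjusted p = 0.793) without replicate 3. The adjusted p-values in these sentences are from DESeq2.

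With RPL22L1 in PEO1 as the exception, the 4 paralogs of the windows above lay below their core genes in mean TPM in every line. PEO1 held 684, 1340.5 and 548 TPM of RPL22L1, against 235, 304 and 331 TPM in PEO4 and 372, 363 and 200.3 TPM in PEO6, where RPL22 was higher than in PEO1. RPL22L1 fell by a log2 fold change of -1.45 ± 0.26 in PEO4 (SE; adjusted p = 3.23e-07) and -1.43 ± 0.27 in PEO6 (SE; adjusted p = 7.36e-07). As a share of RPL22 on the TPM scale, RPL22L1 was at 138 ± 48.7% (SD, n = 3) in PEO1, 26.7 ± 0.615% in PEO4 and 23.1 ± 3.07% in PEO6, so that the paralog exceeded its core gene in PEO1 in all 3 libraries (102% to 193%). The share was 45.2 ± 8.64% in PEA1 and 37.8 ± 4.24% in PEA2 and lay between 7.21 ± 2.08% and 19.6 ± 5.23% in the OVCAR lines. RPL22L1 also fell in OVCAR3 ResA (log2 fold change -0.96, SE 0.16, adjusted p = 1.47e-08), in OVCAR4 ResA (log2 fold change -1.30, SE 0.38, adjusted p = 0.0101, lost with edgeR, limma or short-gene scaling and when replicate 2 or 3 was left out) and in OVCAR4 ResB, from 207, 139.6 and 183 to 81.9, 59.2 and 56.3 TPM (log2 fold change -2.01, SE 0.38, adjusted p = 3.33e-06), a call lost with limma (-1.41, adjusted p = 0.0828). In OVCAR3 ResB (-0.45 ± 0.36, adjusted p = 0.645) and PEA2 (0.55 ± 0.33, adjusted p = 0.174) it was not called by DESeq2, and in OVCAR3 ResB it was at -0.073 (SE 0.26, adjusted p = 0.919) without replicate 3. The range over lines, 13.03-fold from PEO1 to OVCAR4 ResB, was the widest after that of RPS16 among the members tested.

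**Figure D4:**
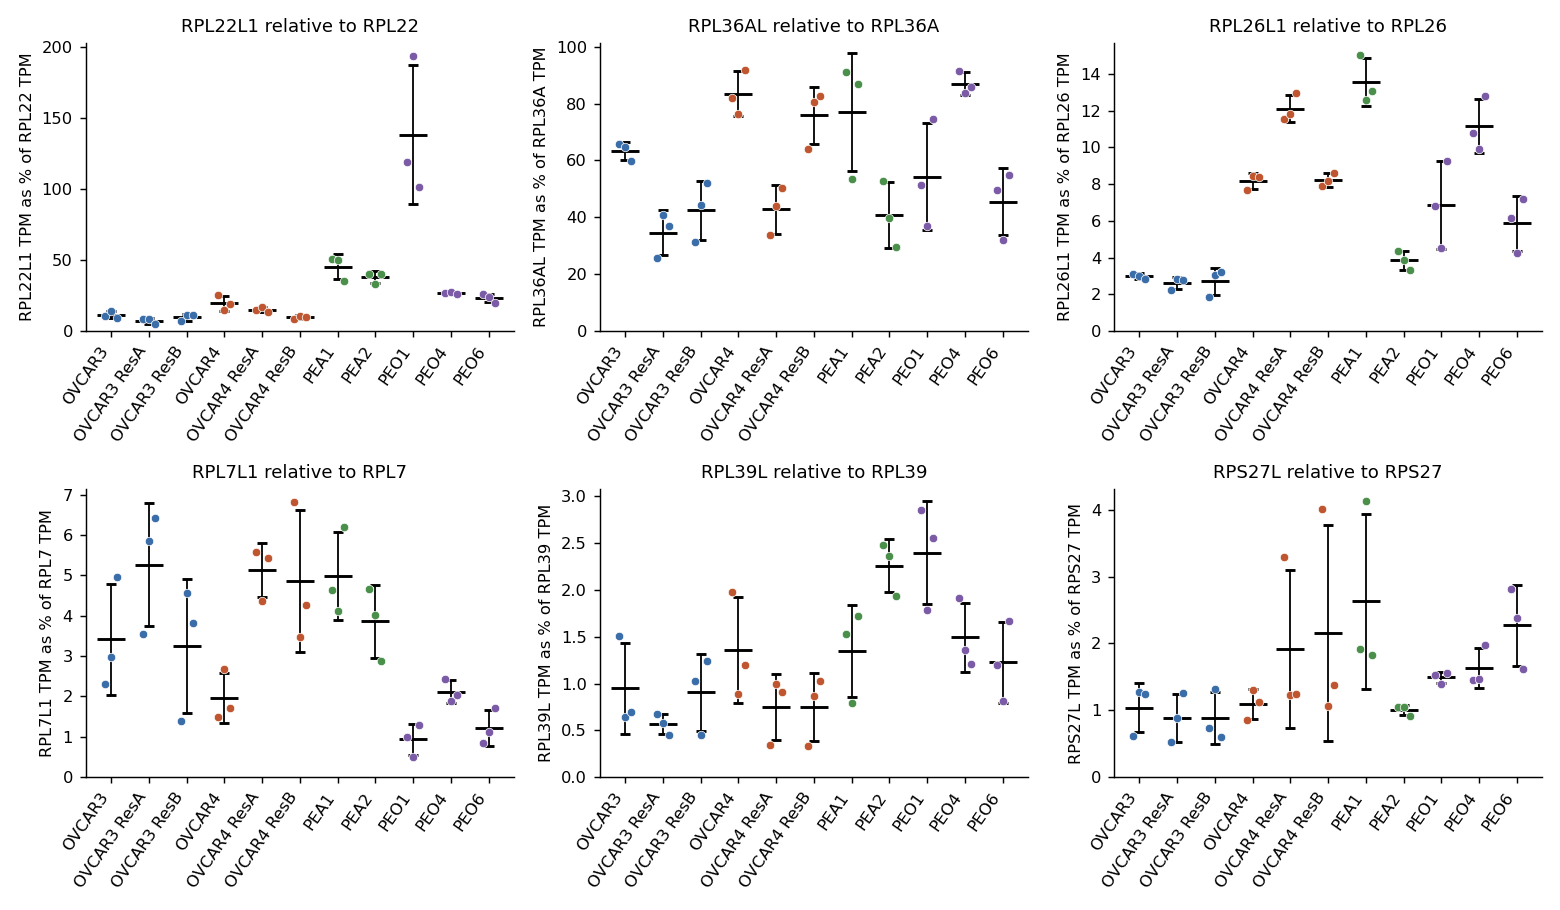
TPM of each paralog as a percentage of the TPM of its core gene, by line, with 1 point per library and bars for the mean and SD (n = 3). RPL22L1 reaches 102% to 193% of RPL22 in PEO1 and 26.2% to 27.4% in PEO4.

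RPL39L, a testis-enriched paralog of RPL39 found in tumours, was at 79.7, 43.7 and 74.9 TPM in PEA1 and 148, 133 and 164 TPM in PEA2 (log2 fold change 1.32, SE 0.24, adjusted p = 3.55e-07), without overlap. It fell from 193, 223 and 139.7 TPM in PEO1 to 98.4, 95.8 and 68.6 in PEO4 (log2 fold change -1.04, SE 0.19, adjusted p = 7.79e-07) and 127, 82.4 and 113 in PEO6 (log2 fold change -0.79, SE 0.28, adjusted p = 0.0144, lost without replicate 2 with -0.39, adjusted p = 0.413), and it fell in OVCAR3 ResA (log2 fold change -0.79, SE 0.15, adjusted p = 3.54e-07), a call lost without the replicate block. RPL39 itself was not called in these comparisons, with DESeq2 log2 fold changes of 0.50 ± 0.29, -0.36 ± 0.22, 0.22 ± 0.26 and -0.14 ± 0.14. RPL36AL, the most abundant paralog, fell in OVCAR3 ResA from 1039.7, 1471 and 1394 to 454, 728 and 854 TPM (log2 fold change -1.11, SE 0.11, adjusted p = 7.13e-21) and in OVCAR4 ResA from 888, 1017 and 1192 to 722, 460.4 and 499 TPM (log2 fold change -1.46, SE 0.41, adjusted p = 0.00679, lost with edgeR, limma or short-gene scaling and when replicate 2 or 3 was left out), while RPL36A was not called there (-0.22 ± 0.12 and -0.48 ± 0.45). As a share of RPL36A in TPM it was 83.5 ± 7.84% in OVCAR4, 42.7 ± 8.50% in ResA and 75.8 ± 10.2% in ResB (SD, n = 3), values given without a test.

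RPS27L, a p53 target, fell in PEA2 (log2 fold change -0.76, SE 0.33, adjusted p = 0.0428) and rose in PEO6, from 169.8, 243 and 122 to 389, 328 and 169 TPM with overlap (log2 fold change 0.68, SE 0.26, adjusted p = 0.0269), calls lost without replicate 1 in both comparisons (-0.81, adjusted p = 0.22 and 0.31, adjusted p = 0.419) and with short-gene scaling. The PEA2 call was also lost with edgeR and without replicate 2 (-0.27, adjusted p = 0.545), and the PEO6 call without the block (0.71, adjusted p = 0.122). RPL7L1, which acts in large subunit assembly, rose in PEO4 from 74.98, 54.4 and 71.7 to 126, 117 and 94.5 TPM (log2 fold change 0.85, SE 0.16, adjusted p = 1.22e-06) while RPL7 fell (log2 fold change -0.49, SE 0.20, adjusted p = 0.0413), the latter call lost without the block, with edgeR and without replicate 1 (-0.47, adjusted p = 0.334) or 2 (-0.26, adjusted p = 0.518). RPL26L1, whose protein differs little from RPL26, did not follow it in PEA2. RPL26 rose from 2540.4, 3470.3 and 2254 to 4820.3, 5610.2 and 7514 TPM (log2 fold change 1.22, SE 0.30, adjusted p = 0.000173) while RPL26L1 was at 382, 436 and 295 TPM in PEA1 and 209.9, 217 and 249 TPM in PEA2 and was not called (log2 fold change -0.60, SE 0.28, adjusted p = 0.0633). Its share of RPL26 was 13.6 ± 1.31% in PEA1 and 3.84 ± 0.517% in PEA2. RPL26L1 fell in OVCAR4 ResB (log2 fold change -0.88, SE 0.31, adjusted p = 0.0306), as did RPL26 (log2 fold change -0.90, SE 0.31, adjusted p = 0.0226), both calls lost with edgeR, limma or short-gene scaling and when replicate 2 or 3 was left out. The muscle paralog RPL3L and the testis paralog RPL10L reached at most 2 and 1 counts in any library and were not tested.

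The change of a core gene was next set beside that of its region. For each core gene with at least 5 expressed neighbours (a mean normalised count of at least 100) within 1 Mb, all non-members, the neighbours' median change was taken, a description chosen after the data had been seen and given without a test. Across 71 to 74 core genes, which are not independent, Pearson's r was 0.696 in OVCAR3 ResA, 0.714 in OVCAR3 ResB, 0.618 in OVCAR4 ResA, 0.657 in OVCAR4 ResB, 0.672 in PEA2, 0.760 in PEO4 and 0.683 in PEO6. Between resistant lines it was 0.617 for OVCAR3 ResB against ResA, 0.753 for OVCAR4 ResB against ResA and 0.249 for PEO6 against PEO4. Spearman's rho in these 10 comparisons, in the same order, was 0.666, 0.605, 0.462, 0.573, 0.699, 0.510, 0.411, 0.573, 0.649 and 0.209. Without replicate 3, r was 0.627 in OVCAR3 ResB and 0.499 in OVCAR3 ResB against ResA. Within a comparison all genes share the same 6 libraries. In level, the median core gene lay -0.99 from its neighbours in OVCAR4 ResA and -1.11 in OVCAR4 ResB, and 73 of 73 and 71 of 71 core genes lay below them. In PEA2 the median was 0.40 with 64 of 74 above, and in OVCAR3 ResA, OVCAR3 ResB, PEO4 and PEO6 it was -0.27, -0.24, -0.23 and 0.049 (-0.037 in OVCAR3 ResB without replicate 3).

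**Figure D5:**
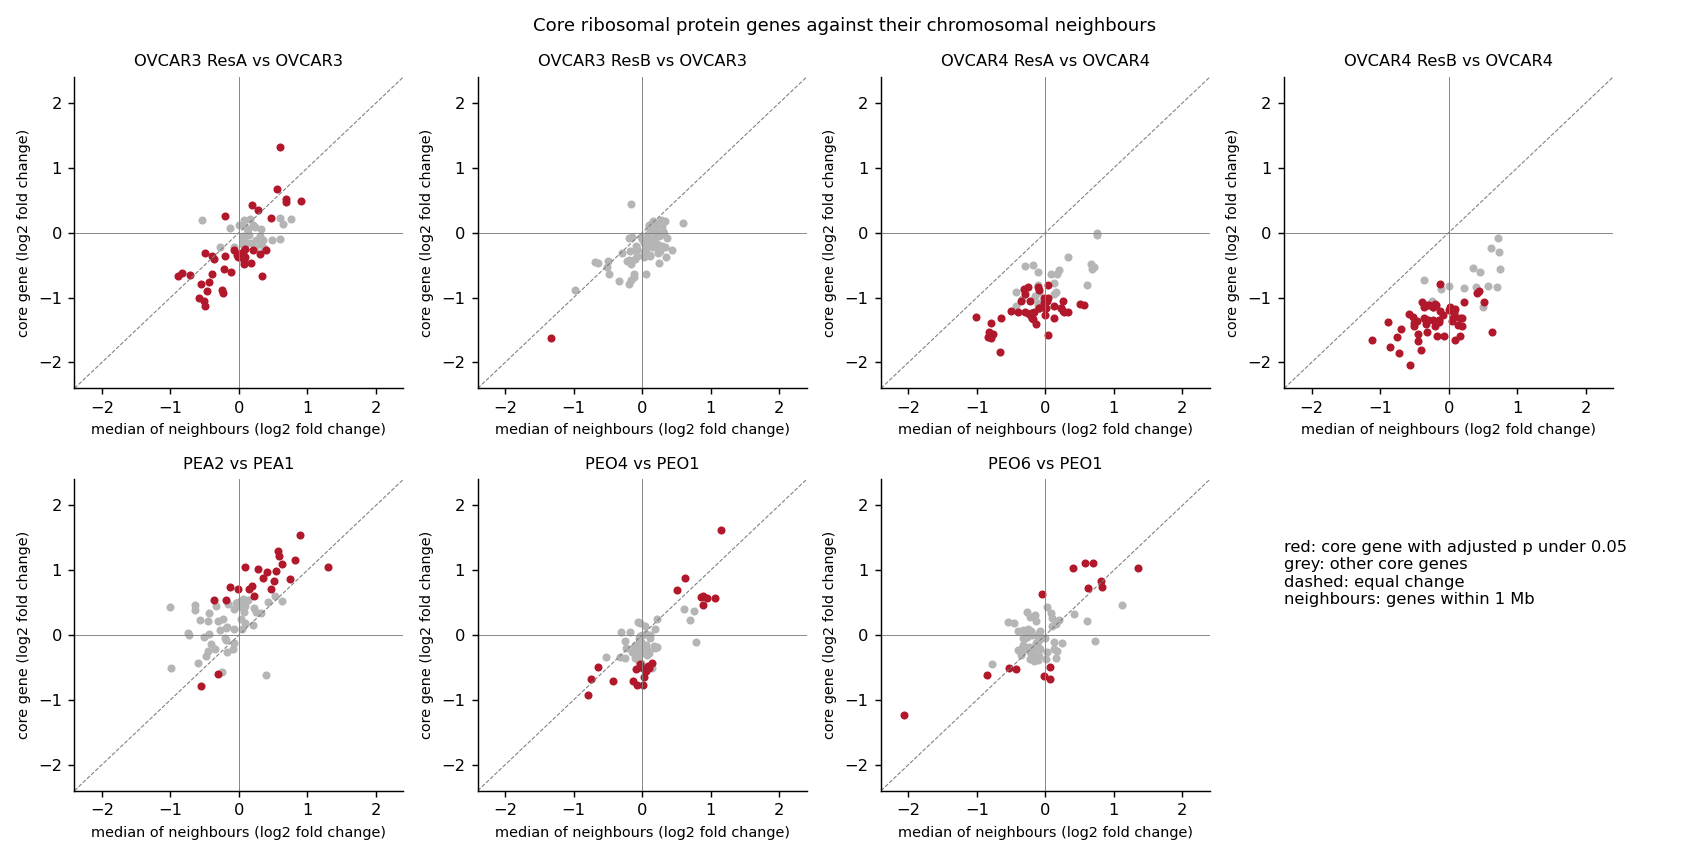
DESeq2 log2 fold change of each core gene (vertical axis) against the median change of expressed genes within 1 Mb (horizontal axis), by comparison, red where the core gene was called, with the dashed line of equality. All points lie below the line in OVCAR4 ResA and OVCAR4 ResB, where the median of core gene minus neighbours is -0.99 and -1.11.

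Several of the members with the largest changes had neighbours called in the same direction. Of the 39 expressed neighbours of RPS16, 30 were called lower and 1 higher in OVCAR3 ResB, with a median of -1.32 against -1.62 ± 0.36 for RPS16. In OVCAR3 ResA 17 of 19 neighbours of RPS19 rose (median 0.60), 28 of 37 neighbours of RPS26 fell (median -0.50) and 28 of 39 neighbours of RPL8 fell (median -0.51). Around RPL38, 15 of 18 neighbours rose in PEO4 (median 1.15) and 11 of 18 in PEO6 (median 0.58), and 6 of 7 neighbours of RPS12 fell in PEO6 (median -2.06). RPS23 had 4 expressed neighbours, all higher in PEA2 (median 1.81). For other members the neighbours did not. Neighbours of RPSA had medians of 0.013 in PEO4 and 0.071 in PEO6 while RPSA fell in both, and neighbours of RPL22L1 had a median of 0.49 in OVCAR4 ResA and -0.26 in OVCAR4 ResB while RPL22L1 fell. In the PEO lines 6 of 9 and 7 of 8 neighbours of RPL22L1 fell (medians -0.97 and -1.48). Whether DNA copy number moved with any of these regions was not analysed here.

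Other genes of the pathway were counted from fixed lists, with DESeq2 calls read against the background given above. TOP mRNAs other than RPs (18 genes, translation factors and the like) held 0 higher and 7 lower in OVCAR4 ResA (median -0.80) and 0 higher and 9 lower in OVCAR4 ResB (median -0.80). NACA, which guards nascent chains at the ribosome, fell in both (-1.17, SE 0.37, adjusted p = 0.0195 in ResA and -1.31, SE 0.39, adjusted p = 0.00637 in ResB). The counts were 0 higher and 9 lower in OVCAR3 ResA, 5 higher and 1 lower in PEA2, 2 higher and 1 lower in PEO4 and 3 higher and 1 lower in PEO6. In OVCAR3 ResB DESeq2 called 0 of the 18. Of the ribosome components outside the symbol rule, RACK1 (listed as GNB2L1) fell in OVCAR4 ResA (-1.06, SE 0.31, adjusted p = 0.00928) and OVCAR4 ResB (-1.29, SE 0.30, adjusted p = 0.000219). FAU fell in OVCAR3 ResA (-0.56, SE 0.11, adjusted p = 2.71e-06) and was called higher in PEO6 (0.52, SE 0.22, adjusted p = 0.0448).

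Ribosome biogenesis factors (40 genes) held 0 higher and 4 lower in OVCAR4 ResA (median -0.50), 0 higher and 7 lower in OVCAR4 ResB (median -0.49), 5 higher and 15 lower in OVCAR3 ResA, 0 higher and 1 lower in OVCAR3 ResB, 12 higher and 10 lower in PEA2, 9 higher and 5 lower in PEO4 and 2 higher and 13 lower in PEO6. FBL, the rRNA methyltransferase fibrillarin, which lies near RPS16 on chromosome 19, was the 1 called in OVCAR3 ResB (-1.32, SE 0.32, adjusted p = 0.00109). RNA polymerase I genes (15) held 4 higher and 4 lower in OVCAR3 ResA, 2 higher and 3 lower in PEA2, 3 higher and 2 lower in PEO6, 2 higher and 0 lower in PEO4, and 1 lower in each of OVCAR3 ResB, OVCAR4 ResA and OVCAR4 ResB. The 13 regulators of RP synthesis held 1 higher and 7 lower in OVCAR3 ResA and 4 higher and 1 lower in PEO4. EIF4EBP1, the translation repressor that mTOR switches off, fell in OVCAR4 ResA (-1.62, SE 0.40, adjusted p = 0.00127), OVCAR4 ResB (-1.29, SE 0.37, adjusted p = 0.00542) and OVCAR3 ResA (-0.9997, SE 0.11, adjusted p = 9.81e-18). MYC, named after its values had been seen, was not called in OVCAR4 ResA (-0.34, SE 0.31, adjusted p = 0.554) and fell in OVCAR4 ResB (-0.89, SE 0.33, adjusted p = 0.0393). The other counts in this list were 0 higher and 1 lower in OVCAR4 ResA, 0 higher and 2 lower in OVCAR4 ResB, 2 higher and 1 lower in PEA2 and 2 higher and 2 lower in PEO6, and DESeq2 called 0 in OVCAR3 ResB.

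Mitochondrial RPs, which build a separate ribosome, were counted for comparison. The 76 genes held 0 higher and 7 lower in OVCAR4 ResA (median -0.58) and 0 higher and 20 lower in OVCAR4 ResB (median -0.66), smaller in median than the cytosolic core genes. The counts were 13 higher and 30 lower in OVCAR3 ResA, 0 higher and 2 lower in OVCAR3 ResB, 7 higher and 17 lower in PEA2, 15 higher and 9 lower in PEO4 and 9 higher and 6 lower in PEO6. Transcripts that p53 induces (18 listed) held 8 higher and 0 lower in OVCAR3 ResA, where the cell cycle inhibitor CDKN1A rose (3.09, SE 0.19, adjusted p = 1.82e-55), and 0 higher and 7 lower of 17 tested in OVCAR4 ResA, where CDKN1A fell (-1.43, SE 0.32, adjusted p = 0.000313). They held 2 higher and 0 lower in OVCAR3 ResB, 1 higher and 3 lower in OVCAR4 ResB, 7 higher and 4 lower in PEA2, 4 higher and 6 lower in PEO4 and 4 higher and 5 lower in PEO6.

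Across the 11 lines taken as units, resistant against sensitive within family, DESeq2 called 0 core genes in either direction, edgeR called 0, and 7 had an unadjusted p under 0.05, where 0.13% of all genes were called higher and 0.156% lower. The median was -0.31, with 75 of 77 estimates below 0, and -0.011 without the OVCAR4 family. The 4 cisplatin-selected lines and the 3 clinical lines were set against each other in 1 DESeq2 fit of all libraries. The change was lower in the selected lines for 41 core genes and higher for 0 (46 at an unadjusted p under 0.05, and 35 lower and 0 higher by edgeR), where 19% of all genes were lower and 19.7% higher. The median difference was -0.68. Without the OVCAR4 family, an alternative added after the data had been seen, 14 were lower and 1 higher and the median was -0.26, so much of the count rested on that family. Of all 18224 genes 3234 were lower and 2968 higher in that fit, so the share of core genes that were lower was close to that of all genes. Without replicate 3 of OVCAR3 ResB, an alternative added in the same way, 40 were lower and 0 higher and the median was -0.62. Of all 18475 genes 3433 were lower and 3575 higher there.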

How the data were processed

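Polyadenylated RNA of 11 lines with 3 replicates each was sequenced, and the authors quantified it with salmon in nf-core/rnaseq against GRCh38. The labels name DRAGEN as a further tool, and strandedness was not given in the sources used here. The deposited expected counts per gene (88.4% whole numbers) were rounded, and the deposited TPM table, which the authors scaled per gene length and library, was used for levels. Library depth and the rRNA and core shares were taken from the expected counts.

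Counts were tested with DESeq2 1.42.0 in R 4.3.3 (Wald test, replicate number and line as terms, median-of-ratios scaling, Benjamini-Hochberg over all genes, 0.05), for 7 pairs, 3 comparisons between resistant lines, a test with lines as units, and the contrast of cisplatin-selected and clinical changes. Alternatives were edgeR 4.0.16, TMM scaling, scaling on 8073 short genes, a low-count filter, no replicate block, and leaving out each replicate number. Short genes were non-members no longer than the 90th percentile of the members' effective length. A further alternative was limma 3.58.1 on log2(TPM + 1) for genes with a mean of at least 1 TPM (folds on that scale understate low genes). Gene neighbours and start windows were taken from RefSeq tables of GRCh38.p14. The scripts were tested on simulated counts. The members and lists were chosen with earlier results of these data known.

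Replicate numbers were checked by correlating deviations from the line means of same-numbered libraries. All 3 correlations passed 0.1 for OVCAR3 ResA with OVCAR3 (0.765, 0.351 and 0.555) and for OVCAR4 ResB with OVCAR4 ResA (0.653, 0.503 and 0.536), and not elsewhere. With 3 libraries per line this check cannot show whether the numbers pair the libraries. Named genes were every paralog with its core gene, the 2 largest increases and decreases among called core genes of each comparison (mean normalised count 100 or more), the core genes called in the most pairs, RPL5 and RPL11, the most and least abundant core genes, and up to 3 members of each list with the largest mean change. Results for a few members and listed genes are not reported here.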

Additional observations from a re-analysis of the deposited data

Results flagged for a closer look

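The 4 cisplatin-selected lines and the 3 clinical lines differed in their change from the sensitive line for 15 of the 33 named members. This was the DESeq2 test of the difference itself (adjusted p from 1.82e-15 to 0.0426 over all genes), with libraries and not lines as units. All 15 differences, selected minus clinical on the log2 scale, were negative, where 19% of all genes were called lower and 19.7% higher. Some of the 33 were named for the largest changes in these same pairs, so this count and sign are not independent support. Of the 77 core genes, chosen by symbol, 41 were lower and 0 higher. Of the 14 given here, those of the small subunit were -1.39 for RPS23, -1.20 for RPS29, -0.90 for RPS15A and -0.78 for RPS16. Those of the large subunit were -1.53 for RPL22, -1.46 for RPL35, -1.32 for RPL38, -1.28 for RPL8, -1.01 for RPL5, -0.89 for RPL7A, -0.83 for RPL7 and -0.68 for RPL35A. The paralogs were RPL36AL at -0.98 and RPL7L1 at -0.71. For RPL22 the mean change over lines was -0.64 in the selected lines and 0.94 in the clinical lines.

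Without the OVCAR4 family 6 of the 15 still differed: RPL22 (-1.23, adjusted p = 0.00317), RPL38 (-1.10, adjusted p = 0.024), RPL8 (-0.90, adjusted p = 1.32e-05), RPS23 (-0.89, adjusted p = 0.00841), RPS29 (-0.85, adjusted p = 0.044) and RPL7L1 (-0.66, adjusted p = 6.59e-05). RPS19, not among the 15 (0.18, DESeq2 adjusted p = 0.755), then differed in the opposite direction (0.97, DESeq2 adjusted p = 0.0169). Without replicate 3 of OVCAR3 ResB, the library that stood apart, 15 of the 15 still differed in the same direction. The selected lines come from 2 starting lines and the clinical lines from 2 patients, so the way resistance arose and the family cannot be told apart. The 3 clinical lines share 2 sensitive controls and the 4 selected lines share 2, so the changes within each kind are not independent.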

How the results depend on the processing

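The count of core genes called was 44 in OVCAR3 ResA with the replicate block and 15 without it. The number called over all genes changed with the setting too. In OVCAR4 ResA it was 51 core genes, with 64 without the block, 1 by edgeR, 4 with short-gene scaling and 0 by limma on log2(TPM + 1). It was 1 to 70 when a replicate number was left out. In OVCAR4 ResB it was 59, with 66 without the block, 28 by edgeR, 19 with short-gene scaling and 1 by limma, and 2 to 73 without a replicate. Leaving out a replicate gave 1 to 4 in OVCAR3 ResB, 9 to 34 in PEA2, 6 to 58 in PEO4 and 9 to 10 in PEO6, and PEO4 without the block had 15. Between resistant lines, OVCAR3 ResB against ResA had 3, with 5 without the block, 1 by edgeR and 1 to 31 without a replicate. OVCAR4 ResB against ResA had 47, with 2 without the block, 30 by edgeR, 17 by limma and 11 to 42 without a replicate. PEO6 against PEO4 had 1, with 5 without the block, 0 by edgeR, short-gene scaling or limma, and 0 to 23 without a replicate. Selected minus clinical had 41, 15 without the OVCAR4 family and 40 without replicate 3 of OVCAR3 ResB, alternatives chosen after seeing the data, as was the core share without rRNA. For single members and shares, 1365 alternative values kept their side of the threshold, 155 lost the call, 44 gained it and 4 moved. Estimates that were not called could change sign, as RPL39 did in OVCAR4 ResA, from -0.027 to as high as 0.53. Block and pairing changed no other count by over 1.5 times. The causes were not tested. Depth did not limit the core genes, and 3 replicates of unstated origin, reads shared with pseudogenes and the unequal rRNA content of the libraries limit these counts.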
